A study of Mus musculus with 9 samples.

Results

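The keratin genes of the corneal epithelium described here are Krt12, Krt4, Krt6a, Krt13, Krt14, Krt15 and Krt17. They were taken as every probe set of the array that the platform annotation gives to 1 of these genes alone, which came to 13 probe sets for 7 genes among 12422 probe sets that are not controls. Of these 13, 11 reached the median of their array on at least 2 of the 9 arrays and entered the tests, and all 7 genes were represented among them. The other 2, Krt13 162322_r_at and Krt17 92861_i_at, stayed low and are described by their values only.

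RNA was taken from 4 groups of mouse tissue: adult cornea at 7 weeks of age (3 arrays), cornea at postnatal day 10, called P10 (2 arrays), adult lens (2 arrays) and adult tendon, the flexor digitorum longus, also at 7 weeks (2 arrays). The labels give no strain, sex, genotype or treatment. Corneas of both ages had been cut free of the limbus and their epithelium scraped away, which by the series text lowered the epithelial share of the RNA without removing it, so the keratin values are a reading of the epithelium that was left. Each array held an independent RNA preparation. For lens and for tendon the tissue was pooled before extraction, while no animals are named for the corneas.

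Keratins are the intermediate filament proteins of epithelial cells. A filament forms from pairs of an acidic type I keratin (here Krt12, Krt13, Krt14, Krt15 and Krt17) and a basic type II keratin (here Krt4 and Krt6a), and which pair a cell makes marks its epithelium and its layer. Krt12 is the type I keratin of differentiated corneal epithelium and is used as its defining marker. Krt14 and Krt15 belong to the basal layer of stratified epithelia. Krt4 and Krt13 are the pair of the upper layers of moist, non-cornified epithelia such as conjunctiva, mouth and oesophagus. Krt6a and Krt17 are made in skin appendages and are induced in wounded or stressed skin.

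Values are the authors' deposited expression indices in arbitrary units, and a value at or below 0 carries no order. Differences were tested on log2(value + 16) with limma over 8154 probe sets, with p-values adjusted by the Benjamini-Hochberg method within each comparison and a threshold of 0.05. "Higher" and "lower" below mean past that threshold, and each difference is the group named first minus the group named second. Adding 16 makes the difference of a dim probe set smaller than its ratio of values. Precision is limited by how few arrays there were, and p-values measure the spread between RNA preparations.

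The array medians lay between 67.6 and 88.0, and arrays of 1 tissue correlated at 0.869 or more while arrays of different tissues, the corneas aside, correlated at 0.615 or less. On adult cornea replicate 1 the Gapdh control was 2.25 times as bright at its 3′ as at its 5′ probe set, against 0.831 to 1.04 on the other arrays, and the actin control 4.69 times, against 1.07 to 2.07. A bulk sample cannot tell fewer epithelial cells apart from less keratin RNA per cell. The cornea arrays came from an earlier study by the series text, so tissue and study cannot be told apart where cornea is set against lens or tendon.

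Krt12 had indices of 6614, 6685 and 8290 in adult corneas, 6440 and 7313 in P10 corneas, 1758 and 1603 in adult lenses, and 401 and 257 in adult tendons. The cornea arrays of both ages overlapped and stood above the other tissues, and both lens arrays stood above both tendon arrays. Its mean was 7197 ± 948 in adult cornea (SD, n = 3) and 6877 ± 617 in P10 cornea (SD, n = 2), a difference of 0.060 ± 0.20 on the log2 scale (SE) with a 95% interval of -0.38 to 0.50 and a limma adjusted p of 0.952. The sign of that small difference turned in 4 of 21 alternative fits. Krt12 was the brightest probe set on all 5 cornea arrays, and whether its signal is compressed there was not tested. The marker of differentiated corneal epithelium was thus present at both ages after scraping, with no difference past the threshold.

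Krt6a, a type II keratin also found in stressed epidermis, was present in cornea of both ages as well. Probe set 104369_at had indices of 4268, 4698 and 4904 in adult corneas, 3385 and 4193 in P10 corneas, 365 and 269 in lenses, and 181 and 143 in tendons. All 3 adult corneas lay above both P10 corneas, with a difference of 0.29 ± 0.19 (95% interval -0.14 to 0.72, limma adjusted p = 0.550). Probe set 104370_s_at, whose suffix marks probes shared by several transcripts, had 2930, 4127 and 3960 in adult corneas and 2766 and 3828 in P10 corneas, and there the ages overlapped (difference 0.16, limma adjusted p = 0.860). In lenses it had 112 and 64.9, and in tendons it was listed at -26.7 and -28.9.

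Krt4 was lower in adult than in P10 cornea. Probe set 100421_at had indices of 175, 513 and 279 in adult corneas, 941 and 1259 in P10 corneas, 39.7 and 43.0 in lenses, and 46.3 and 30.5 in tendons. Every adult cornea lay below both P10 corneas, and the corneas of both ages lay above the other tissues. The difference between the ages was -1.83 ± 0.36 (SE), or 3.56-fold lower in adult cornea, with a limma adjusted p of 0.0204. The call was lost without P10 replicate 1 (adjusted p = 0.0956) and without P10 replicate 2 (adjusted p = 0.198), where the single P10 array left was assumed to vary like the other groups.

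The second Krt4 probe set, 161647_f_at, lay near the floor of the measurement. It was listed at -88.7, 159 and -131 in adult corneas and at 251 and 534 in P10 corneas, and at -218 and -269 in lenses and -207 and -203 in tendons. The ages did not overlap, with P10 above. Its difference of -3.43 (limma adjusted p = 0.0563) rests on adult values set to 0 and missed the threshold, and without adult replicate 2 it passed (adjusted p = 0.000186).

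Krt17, a type I keratin of skin appendages and wounded skin, was also lower in adult cornea. Probe set 92862_f_at had indices of 277, 640 and 357 in adult corneas, 1100 and 1275 in P10 corneas, 36.5 and 53.6 in lenses, and 87.0 and 41.4 in tendons. The ages did not overlap, and the difference was -1.53 ± 0.35, or 2.89-fold lower in adult cornea (limma adjusted p = 0.0390). The call did not hold without adult replicate 1 (adjusted p = 0.115), adult replicate 3 (0.0678), P10 replicate 1 (0.192), P10 replicate 2 (0.273) or either lens array (0.0639 and 0.0645).

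The Krt17 probe sets went apart from each other. The _f_at suffix marks probes that match a family of like sequences, so other type I keratins may add to the values above. The dim 92861_i_at, which was not tested, had 13.2, 23.8 and 21.1 in adult corneas and 74.8 and 115 in P10 corneas, again with the P10 corneas above. Probe set 161496_r_at, whose suffix marks a set for which some probe selection rules were dropped, had 129, 142 and 103 in adult corneas, 119 and 122 in P10 corneas, 144 and 183 in lenses, and 201 and 167 in tendons. It correlated with 92862_f_at at r = -0.70 over the 9 arrays and passed the threshold in no comparison.

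Krt13, the type I partner of Krt4, differed between the ages in the same direction without passing the threshold. Probe set 100109_s_at had indices of 362, 851 and 409 in adult corneas, 1017 and 1027 in P10 corneas, 10.3 and 5.47 in lenses, and 13.4 and 14.4 in tendons. Both P10 corneas lay above all adult corneas, with a difference of -1.001 ± 0.32 (limma adjusted p = 0.128). Probe set 160510_f_at gave -1.05 ± 0.38 (limma adjusted p = 0.188), from 296, 672 and 350 in adult corneas against 733 and 1031 in P10 corneas. Without adult replicate 2 both probe sets passed, with adjusted p of 0.00514 and 0.0470. The dim 162322_r_at stayed between 1.44 and 18.5 on all 9 arrays. The suffixes of both tested Krt13 probe sets, and of Krt4 161647_f_at, mark shared or family probes as well. Other keratins may therefore add to their values.

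The basal keratins Krt14 and Krt15 had the same order. Krt14 (101041_at) had indices of 759, 1067 and 789 in adult corneas, 1648 and 1375 in P10 corneas, 4.18 and 10.2 in lenses, and 124 and 20.5 in tendons. Krt15 (160852_at) had 831, 1139 and 612 in adult corneas, 2345 and 2146 in P10 corneas, 0.721 and 13.4 in lenses, and 121 and 43.1 in tendons. For both genes every adult cornea lay below both P10 corneas. The difference was -0.79 ± 0.45 for Krt14 (95% interval -1.80 to 0.22, limma adjusted p = 0.464) and -1.41 ± 0.39 for Krt15 (95% interval -2.27 to -0.55, limma adjusted p = 0.0785), and neither passed the threshold.

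**Figure D1:**
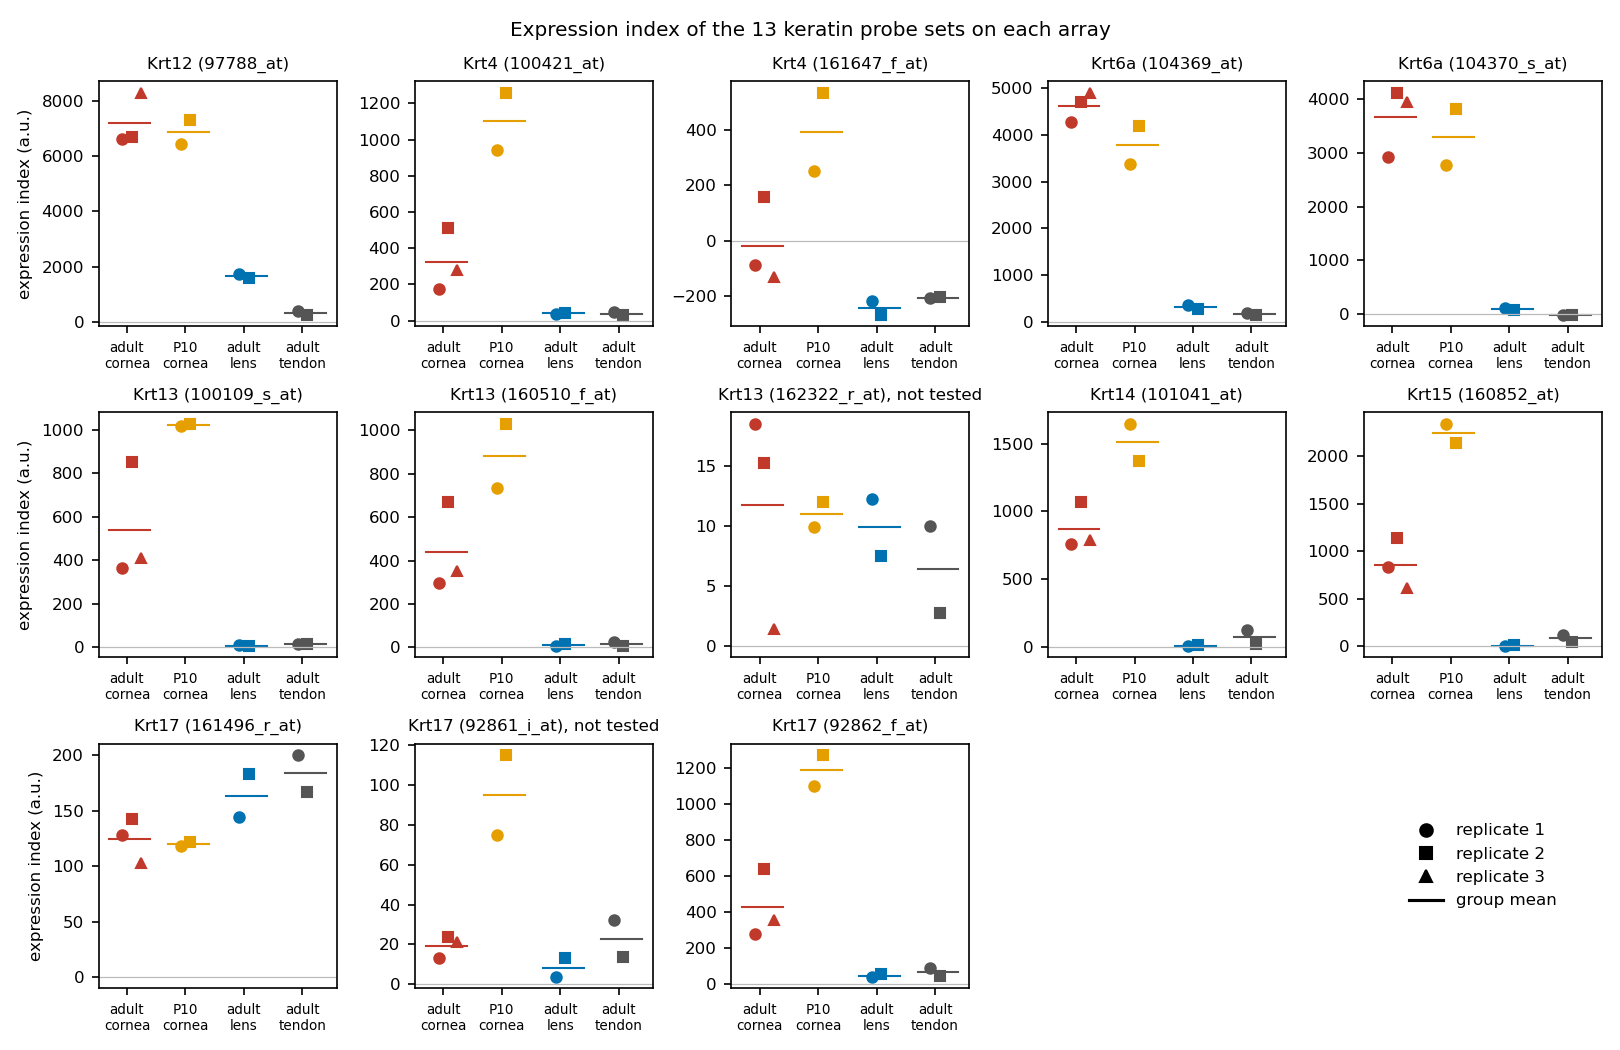
Expression index in arbitrary units of each of the 13 keratin probe sets on the 9 arrays, by tissue, with marker shapes for replicates and a line at the group mean. Krt12 and Krt6a sit at like heights in cornea of both ages. Krt4 100421_at, both tested Krt13 probe sets, Krt14, Krt15 and Krt17 92862_f_at sit lower in all 3 adult corneas than in both P10 corneas.

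Counted over the members, 0 probe sets were higher and 2 of 11 were lower in adult than in P10 cornea, where 0.699% of all 8154 probe sets tested were higher and 3.88% were lower. At an unadjusted limma p under 0.05 the counts were 0 higher (2.61% of all tested) and 6 lower (13.1% of all tested), namely both Krt4 probe sets, both tested Krt13 probe sets, Krt15 and Krt17 92862_f_at. The methods' t-test, described with the processing, gave 0 higher and 2 lower, where 0.331% and 1.40% of all were. The groups did not overlap for 7 probe sets with adult cornea below, against 25.1% of all tested, and for 1 with adult cornea above, against 6.46% of all tested. The median difference was -1.001 over the 11 members tested and -0.13 over all probe sets. Between Krt12 and Krt6a on one side and the other 5 genes on the other, no test of the difference was run.

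The spread within the adult group was shared by several members. Adult replicate 2 held the highest adult value of Krt4, both tested Krt13 probe sets, Krt14, Krt15 and Krt17 92862_f_at. In Krt12 it stood below replicate 3. Adult replicate 1, the array with the high 3′ to 5′ control ratios, held the lowest adult value of several members. These were Krt4 100421_at, both tested Krt13 probe sets, Krt14 and Krt17 92862_f_at. For Krt15 and Krt4 161647_f_at the lowest adult value was on replicate 3. Without adult replicate 1 the members called lower numbered 1, where 2.29% of all probe sets were. Whether RNA quality has a part in this was not tested. The members called lower numbered 5 without adult replicate 2, where 4.12% of all probe sets were, and 0 without P10 replicate 1 or P10 replicate 2, where 1.04% and 0.834% of all were. Within the P10 group, replicate 2 was the higher one for Krt4 and Krt17 92862_f_at, and replicate 1 for Krt14 and Krt15.

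How much epithelium was left on the scraped corneas was read from 13 epithelial genes that are not keratins, among them Cdh1 (E-cadherin, the epithelial adhesion receptor), Perp and Dsp (desmosome components), Trp63 (the p63 transcription factor of basal cells), Itgb4 and Col17a1 (hemidesmosome components). Summed with the 2 dim genes of the same list that were not tested, the indices came to 14610 to 18094 over the adult corneas and 13918 to 15397 over the P10 corneas, which overlapped, and the median difference over the 13 genes was 0.10. Dsp averaged 3025 ± 312 in adult cornea and 2876 ± 0.156 in P10 cornea (SD, n = 3 and 2), Perp 3489 ± 177 and 3390 ± 33.7, and Trp63 259 ± 71.4 and 254 ± 35.4. Of the 13 genes, 1 was higher in adult cornea, Cldn7, a claudin of tight junctions (1.23, limma adjusted p = 0.0200), and 0 were lower. At an unadjusted limma p under 0.05, 2 were higher and 0 lower. Cldn7 was not called without adult replicate 1 (adjusted p = 0.0690), P10 replicate 1 (0.132) or P10 replicate 2 (0.187).

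Each cornea array was also set relative to its own mean log2 value of these 13 genes. That mean was 10.07, 10.07 and 9.60 in adult and 9.75 and 9.56 in P10 corneas, so the spread between arrays changed too. Among the 13, Cldn7 and Elf3 had the lowest P10 means, at 40.6% and 60.3% of adult cornea, and Col17a1 the highest, at 105%. The difference between the ages fell by the same amount for every probe set. Its median over all 8154 then stood at -0.39 in place of -0.13. On that scale Krt15 passed at -1.67 (limma adjusted p = 0.0151) and Krt17 92862_f_at at -1.79 (adjusted p = 0.0474). Krt4 100421_at, at -2.10, no longer did (adjusted p = 0.0538), and Krt14, at -1.06, stayed short (adjusted p = 0.0545). Krt12 came to -0.20, Krt6a to 0.030 and -0.10, and Krt13 to -1.26 and -1.31, all short of the threshold. That fit used only the 5 cornea arrays and so had fewer degrees of freedom.

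**Figure D2:**
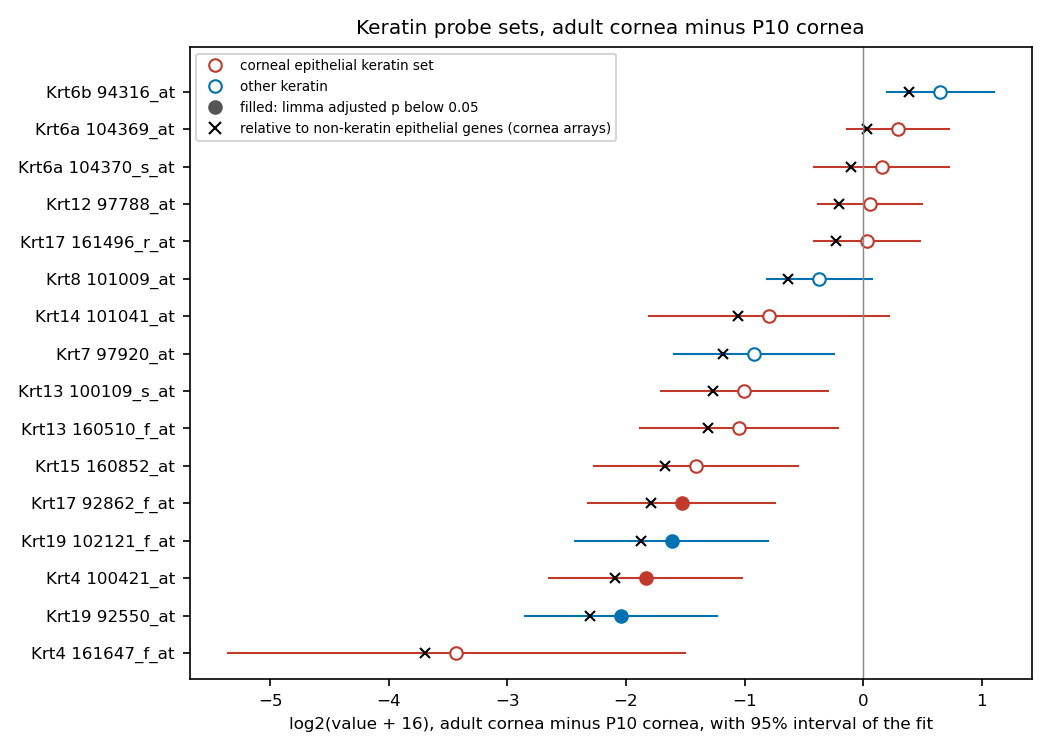
Difference of adult minus P10 cornea on the log2(value + 16) scale for the tested members and for other keratins, with bars for the 95% interval of the limma fit over 9 arrays. Filled points passed an adjusted p of 0.05, and crosses give the difference relative to 13 epithelial genes that are not keratins. Krt12 and Krt6a lie near 0, and Krt4 100421_at at -1.83 and Krt17 92862_f_at at -1.53 are filled.

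The rest of the keratin family gives the setting for these values. There were 37 probe sets for 26 other keratin genes, of which 25 were tested, and between adult and P10 cornea 0 were higher and 2 were lower in limma (2 higher and 3 lower at an unadjusted p under 0.05). Both belong to Krt19, a type I keratin of simple epithelia that is also made in conjunctiva. Its 92550_at had 320, 829 and 443 in adult corneas against 1848 and 2329 in P10 corneas (-2.04, limma adjusted p = 0.0117), and its 102121_f_at differed by -1.61 (adjusted p = 0.0363). Neither passed without P10 replicate 1 (adjusted p = 0.0668 and 0.154) or P10 replicate 2 (0.128 and 0.273), and 102121_f_at passed only with adult replicate 2 as the array left out. In Krt19, too, adult replicate 2 held the highest adult value.

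Krt6b, a close relative of Krt6a, had 2554, 3021 and 3022 in adult corneas against 1625 and 2025 in P10 corneas, a difference of 0.65 (limma adjusted p = 0.121). Krt7 and Krt8, keratins of simple epithelia, differed by -0.92 (adjusted p = 0.144) and -0.37 (adjusted p = 0.423), with the P10 corneas above. Krt16, which pairs with Krt6 in wounded skin and was too dim to be tested, had 2.61, 5.06 and -9.17 in adult corneas against 45.1 and 128 in P10 corneas. The probe set of Krt5, the usual type II partner of Krt14, stayed between 62.0 and 142 on all 9 arrays with no difference called in cornea, so this array gave no reading of that pair. Krt6a and Krt6b are closely related in sequence, as are Krt14, Krt16 and Krt17, and probes may be shared between them.

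Gene groups that go with keratins were read from fixed lists. Of 16 junction and linker genes that anchor keratin filaments, 0 were higher and 1 was lower in adult cornea, Dsc3, a desmosomal cadherin (-2.81, limma adjusted p = 0.00749). At an unadjusted p under 0.05, 0 of them were higher and 3 lower. Dsc3 was not called without P10 replicate 1 (-2.49) or in the methods' t-test. Nor was it called with a pseudocount of 1 (-4.43, limma adjusted p = 0.156) or with only the groups compared (limma adjusted p = 0.0550). Of 13 cornified envelope and barrier genes, 12 epithelial transcription factor genes and 12 stress and wound response genes, 0 were higher and 0 lower in limma, with median differences of -0.029, -0.11 and -0.0054. At an unadjusted limma p under 0.05 the first list had 1 higher and 0 lower, the second 1 higher and 3 lower, and the third 3 higher and 1 lower. Among the transcription factors Klf4 averaged 1700 ± 149 in adult and 1280 ± 240 in P10 cornea, and Pax6, the eye regulator, 677 ± 136 and 832 ± 148. Sprr1a, a cornified envelope precursor raised in stressed epithelium, averaged 107 ± 9.50 in adult and 103 ± 5.95 in P10 cornea.

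Some markers of other cells differed with age beside the members. Of 10 conjunctival and mucous epithelium genes, 0 were higher and 2 were lower in adult cornea, Krt19 and the trefoil factor Tff2 (-0.97, limma adjusted p = 0.0447), with 0 higher and 3 lower at an unadjusted p under 0.05. Tff2 was not called with any 1 of the 9 arrays left out (adjusted p = 0.0504 to 0.497). All 13 genes of that list on the array summed to 2790 to 3503 over adult corneas against 5140 to 5552 over P10 corneas. Krt19 92550_at, with means of 530 in adult and 2088 in P10 cornea, is part of these sums. The median difference over the 10 tested genes was -0.20, against -0.13 over all probe sets. The goblet cell mucin Muc5ac averaged 54.7 ± 21.2 in adult and 40.8 ± 24.5 in P10 cornea, and its probe set read 529 and 507 in lens. Of 12 corneal stroma genes 0 were higher and 6 lower, among them Col5a1, Col1a2, Thy1, Col1a1 and Ogn (0 and 10 at an unadjusted limma p under 0.05), with sums of 7886 to 8943 in adult against 19960 to 20329 in P10 corneas. Without P10 replicate 1 or P10 replicate 2 the calls were lost for Col1a2 (adjusted p = 0.111 and 0.120), Thy1 (0.0956 and 0.155) and Ogn (0.190 and 0.0534). Of 11 epidermis and hair follicle genes 0 were higher and 0 lower in limma (1 and 0 at an unadjusted p under 0.05), and the 16 on the array had sums of 1721 to 2257 in adult and 1801 to 1867 in P10 corneas.

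A few markers of lens, leukocytes and muscle were called between the ages too. The median difference was -0.25 over the lens list, 0.050 over the leukocyte list and -0.17 over the tendon and skeletal muscle list. Over all probe sets it was -0.13. Of 9 lens genes 1 was higher in adult cornea, the crystallin Crybb2 (1.29, limma adjusted p = 0.0188), and 2 were lower, the crystallin Crygd (-1.37, adjusted p = 0.0304) and the lens filament protein Bfsp1 (-0.87, adjusted p = 0.0259). Bfsp1 was also the 1 gene called lower, with 0 higher, among 9 intermediate filament genes that are not keratins (0 higher and 1 lower at an unadjusted p under 0.05). Of 9 leukocyte genes 0 were higher and 1 was lower, the Fc receptor gamma chain Fcer1g (-1.61, limma adjusted p = 0.00535), with 1 higher and 1 lower at an unadjusted p under 0.05. The leukocyte list summed to 1040 to 1138 over adult corneas against 1279 to 1528 over P10 corneas. Of 9 tendon and skeletal muscle genes 0 were higher and 1 was lower, the muscle protein parvalbumin, Pvalb (-1.38, limma adjusted p = 0.00651), with 0 higher and 3 lower at an unadjusted p under 0.05. That list summed to 378 to 522 over adult corneas against 789 to 935 over P10 corneas. Without P10 replicate 1 the calls were lost for Crybb2, Bfsp1, Fcer1g and Pvalb (adjusted p = 0.227, 0.163, 0.0734 and 0.0642), and without P10 replicate 2 for Crybb2, Bfsp1, Crygd and Pvalb (0.0555, 0.267, 0.315 and 0.0861). Crygd and Bfsp1 were also not called without adult replicate 1 (0.0718 and 0.0846) or either tendon array, nor Crygd without either lens array (adjusted p up to 0.0647 in these fits). The part of any of these cells or of layer composition in the keratin differences was not tested.

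Set against the other tissues, most members were higher in cornea. All 11 tested members reached the array median on 3 or more cornea arrays and 4 of them (both Krt4 and both tested Krt13 probe sets) on no lens or tendon array, so their place among the tested probe sets already leans to cornea and the counts are a description. In adult cornea against lens 9 of 11 were higher and 0 lower, where 27.2% of all probe sets tested were higher and 24.0% lower. Against tendon 9 of 11 were higher and 0 lower, where 16.1% were higher and 18.9% lower. For P10 cornea the counts were 10 higher and 0 lower against lens (31.6% and 19.4% of all tested) and 10 higher and 0 lower against tendon (15.7% and 11.0%). The probe set that did not pass in any of these was Krt17 161496_r_at, and in adult cornea Krt4 161647_f_at also did not. Without the 4 members that entered through cornea alone, 6 of 7 were higher and 0 lower in each of these comparisons. At an unadjusted limma p under 0.05 the lower counts stayed at 0 against lens (26.6% of all tested for adult and 21.5% for P10 cornea) and were 1 against tendon at each age (23.0% and 15.4%), which was Krt17 161496_r_at. The methods' t-test called 0 lower in these 4 comparisons. Among the 25 other keratin probe sets tested, 6 were higher and 4 lower in adult cornea against lens, and 6 higher and 5 lower against tendon.

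The size of the gap to lens differed between members. Krt12 was higher in adult cornea than in lens by 2.08 ± 0.20, or 4.23-fold (limma adjusted p = 1.53e-05), and the mean lens index was 23.4% of the adult corneal one. The open question of compression at the brightest corneal signal applies to both values. Krt6a 104369_at was higher by 3.81 and 104370_s_at by 5.16, with lens at 6.85% and 2.41%. For Krt13 100109_s_at, Krt14 and Krt15 the lens means were 1.45%, 0.824% and 0.817% of adult cornea, at indices of 7.86, 7.18 and 7.04, which lie low on those arrays. Krt4 100421_at and Krt17 92862_f_at had 12.8% and 10.6% in lens, at indices of 41.3 and 45.1. A dim probe set may carry nonspecific signal, and no correction was made for it.

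Other epithelial genes also reached the lens to unequal degrees. The 13 epithelial genes that are not keratins had a median of 6.46% of adult cornea in lens, and all 13 were higher in adult cornea. Cdh1 stood at 42.7%, Pkp3 at 41.9% and Esrp1 at 21.4%, while Sfn and Itgb4 were listed below 0 in lens. The lens has an epithelium of its own. In the other direction, lens markers summed to 5690 to 9319 over adult corneas and 7281 to 12950 over P10 corneas, against 41992 to 43758 over lenses. Whether tissue carried over in dissection has a part in either reading was not tested.

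**Figure D3:**
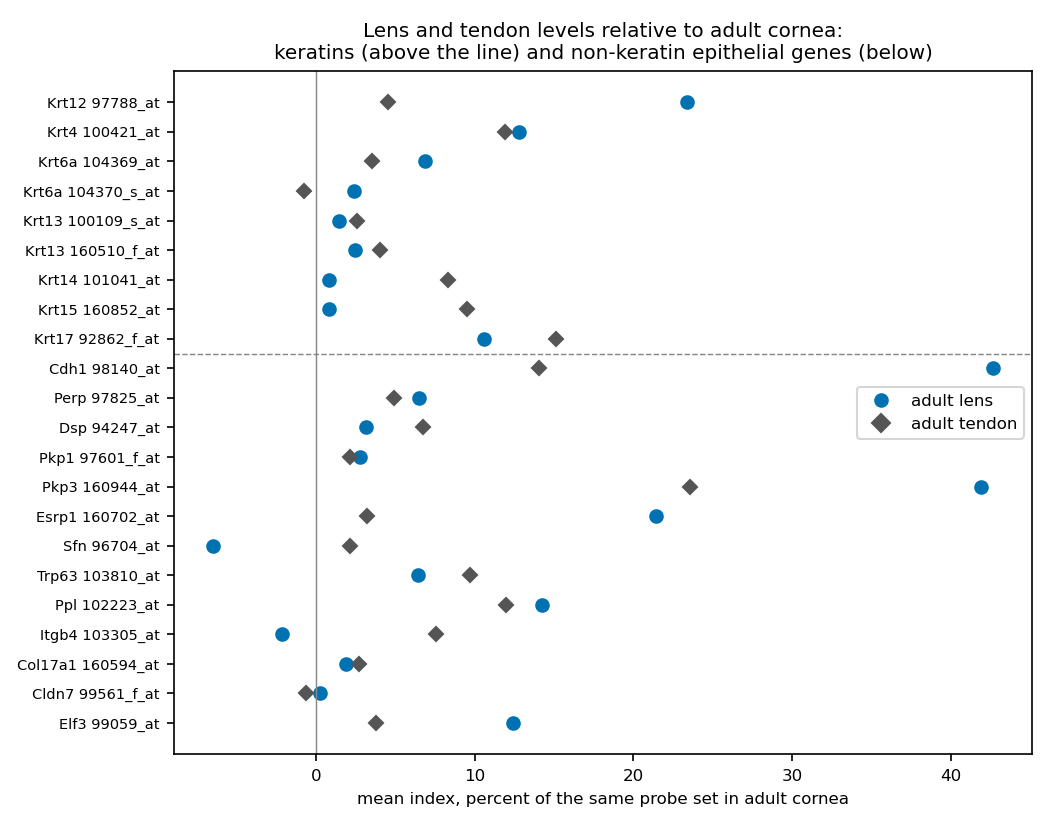
Mean index in adult lens and adult tendon as a percent of the mean in adult cornea, for the same probe set, with keratins called higher in adult cornea than in lens above the dashed line and epithelial genes that are not keratins below it. In lens Krt12 stands at 23.4% and Krt14 and Krt15 at 0.824% and 0.817%, and in tendon Krt14 and Krt15 stand at 8.29% and 9.53% and Krt12 at 4.57%.

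Between lens and tendon, members were called in both directions, at about the rate of all probe sets. In lens against tendon 3 of 11 members were higher and 2 lower, where 22.6% of all probe sets tested were higher and 26.4% lower. Krt12 was higher in lens by 2.33 ± 0.21, or 5.03-fold (limma adjusted p = 1.19e-05), and Krt6a 104369_at and 104370_s_at by 0.90 (adjusted p = 0.00555) and 2.67 (adjusted p = 2.86e-05). The 2.67 rests on tendon values set to 0, and it was 1.24 with a pseudocount of 64 and 6.43 with a pseudocount of 1. The basal keratins were lower in lens, Krt14 by -1.64 ± 0.50 (limma adjusted p = 0.0201) and Krt15 by -2.02 ± 0.42 (adjusted p = 0.00283). Their lens values lie near the floor, so the sizes turn on the pseudocount, with -0.83 (adjusted p = 0.0569) and -0.99 (adjusted p = 0.0204) at 64 and -2.77 and -3.88 at 1. The Krt14 call was lost without lens replicate 1 (adjusted p = 0.111), lens replicate 2 (0.0594) or tendon replicate 1 (0.145), and that of Krt6a 104369_at without tendon replicate 2 (0.0553). Krt4, both tested Krt13 probe sets and both tested Krt17 probe sets passed in neither direction.

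The tendon values of the basal keratins came mostly from 1 preparation. Krt14 had 124 on tendon replicate 1 against 20.5 on replicate 2, Krt15 had 121 against 43.1, and Krt17 92862_f_at 87.0 against 41.4, while Krt12 had 401 against 257 and Krt13 100109_s_at 13.4 against 14.4. On the log2(value + 16) scale replicate 1 exceeded replicate 2 by 1.94 for Krt14 and 1.21 for Krt15. Of all 8154 probe sets tested, 26, or 0.319%, were at least 2-fold higher on replicate 1, and Krt14 and Krt15 were among them. With 2 arrays no test between these preparations can be made.

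Some genes of cornified skin were also higher on tendon replicate 1. Krt10, the type I keratin of the upper epidermal layers, had 1853 on tendon replicate 1 against 464 on replicate 2, while its probe set 94321_at lay between 67.3 and 110 on the cornea and lens arrays. The other tested Krt10 probe set, 162121_at, had 91.0 and 96.3 in tendons and did not pass in adult cornea against tendon (-0.15, limma adjusted p = 0.779). Lor, the cornified envelope protein loricrin, had 343 against 160, Krt2 (101698_f_at) 339 against 169, and Krt1, the partner of Krt10, 545 against 325. Of 11 epidermis and hair follicle genes tested, 8 were higher on replicate 1, where 2691 of all 8154 probe sets were, and their median difference was 0.098. Krt86, Foxn1 and Krt81 were higher on replicate 2, by differences of -1.24, -0.19 and -0.13. The epithelial genes Dsp (316 on replicate 1 against 90.5 on replicate 2) and Perp (275 against 68.4) were higher on replicate 1. Krt10 94321_at was lower in adult cornea than in tendon, at -3.26 (limma adjusted p = 0.000277). Whether skin left on the tendon has a part in these values was not tested.

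**Figure D4:**
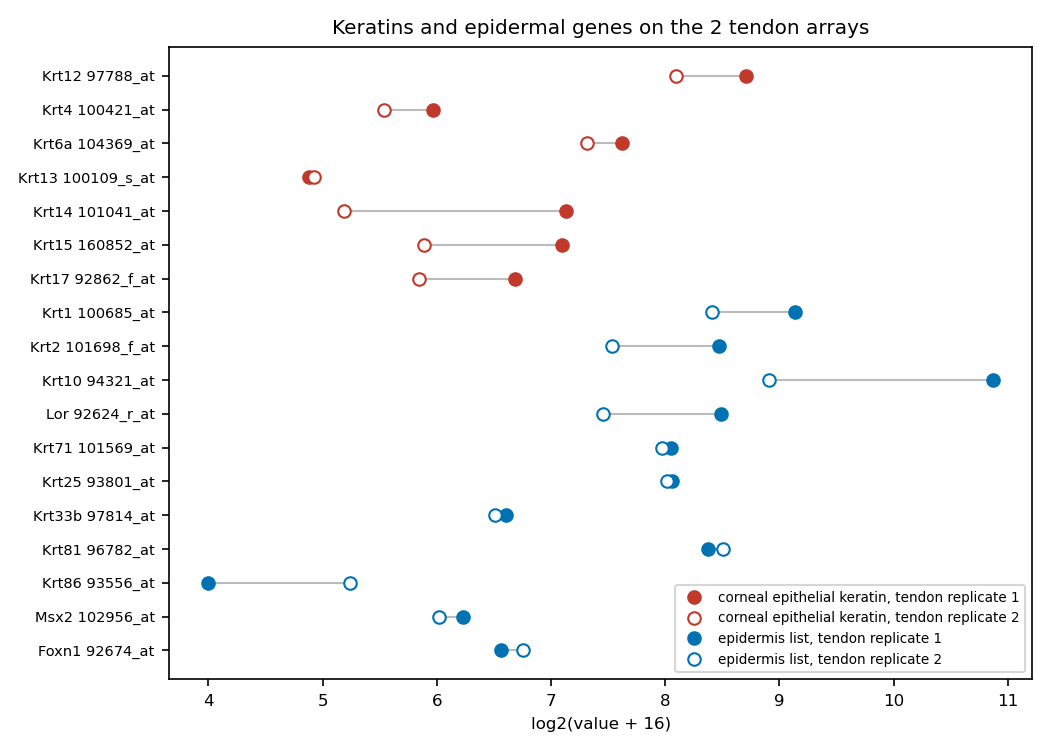
Values on the log2(value + 16) scale on the 2 tendon arrays for the corneal keratins and for epidermal genes, filled for replicate 1 and open for replicate 2. Krt14, Krt15, Krt10 and Lor lie apart between the arrays, at differences of 1.94, 1.21, 1.96 and 1.03, and Krt13 100109_s_at lies together at -0.044.

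Patterns over all 9 arrays, which share tissue and are a description only, were alike for most members and gave no separate groups. Krt12 correlated with the Krt6a probe sets at r = 0.95 and 0.98, with both tested Krt13 probe sets at 0.85, and with Krt14 and Krt15 at 0.77 and 0.72. Krt6a 104369_at correlated as closely with Krt13 100109_s_at (0.95) as with Krt12. Krt14 and Krt15 correlated at 0.99 with each other, and Krt4 100421_at with Krt17 92862_f_at at 0.99. The probe sets of 1 gene correlated at 0.99 for Krt6a and for the tested pair of Krt13, and at 0.88 for Krt4.

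Other genes had patterns much like a member's over the 9 arrays. Nearest to Krt12 were Aldh3a1 (r = 0.99), the aldehyde dehydrogenase that accumulates in corneal epithelium, then Gsto1 (0.99), Tkt (0.99), the transketolase abundant in mouse cornea, Cdcp1 (0.98) and Prom1 (0.98). Aldh3a1 (99548_at) averaged 6605 in adult and 6602 in P10 cornea, 590 in lens and -10.3 in tendon. Nearest to Krt6a were Hspa1b, a second probe set of Aldh3a1 and Gsta4 (0.99 each).

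The neighbours of the other members, of which only Krt4 and Krt17 were called between the ages, were named in the same way. Nearest to Krt4 were Alcam (0.98), a cell adhesion molecule, Jag2 (0.98), a Notch ligand, and Tfap2b (0.97), a transcription factor of the AP-2 family. Nearest to Krt13 were Wwc1, Aldh1a3, which makes retinoic acid, and Upp1 (0.99 each), and nearest to Krt15 were Ermp1 (0.99), Foxq1 (0.99) and Wnt10a (0.99), a Wnt ligand. Nearest to Krt14 were Ddx27 (0.99), Alox12e (0.98) and Ermp1 (0.98). Nearest to Krt17 were Ddx27 (0.98), Alcam (0.98) and Mcm5 (0.97), a subunit of the replicative helicase.

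The genes lie in the keratin clusters of the mouse genome. In the order of coding genes in the RefSeq annotation of GRCm38.p6, the type I members are on chromosome 11, where Krt13, Krt15, Krt19, Krt9, Krt14, Krt16 and Krt17 follow each other and Krt12 lies next to Krt10, apart from them. The type II members Krt6a and Krt4 are on chromosome 15. Among tested probe sets, Krt13, Krt15, Krt19, Krt14 and Krt17 92862_f_at had both P10 corneas above all adult corneas. These genes are from the run of neighbours on chromosome 11. Krt17 161496_r_at, also from that run, did not have this order. Outside the run on chromosome 11, Krt10 94321_at had it. Krt12, Krt10 162121_at, Krt20, Krt25, Krt32, Krt33b, Krt35 98997_f_at and Krt36 did not. On chromosome 15 Krt4, Krt7, Krt8 and Krt72 had that order as well, as did 25.1% of all probe sets tested. The reverse order was seen for Krt35 98998_r_at on chromosome 11 and for Krt6b and Krt6a 104369_at on chromosome 15. Krt9 has no probe set of its own here.

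Promoter windows of the members were looked up in RefSeq, and 3 of the 7 matched, Krt12, Krt13 and Krt14. They are printed side by side. Krt12 is a gene with like values at both ages, Krt13 a gene of moist upper layers and Krt14 a basal gene. Each window follows an annotated start. Whether that start is the main one of its gene, or the one used in these tissues, was not tested. Each runs from 250 bases before to 50 bases after the annotated start on the minus strand of GRCm38.p6, 5′ to 3′, with matches to the motifs named below in capitals. The windows are chr11:99422210-99422509 for Krt12, chr11:100121517-100121816 for Krt13 and chr11:100205981-100206280 for Krt14.
Krt12: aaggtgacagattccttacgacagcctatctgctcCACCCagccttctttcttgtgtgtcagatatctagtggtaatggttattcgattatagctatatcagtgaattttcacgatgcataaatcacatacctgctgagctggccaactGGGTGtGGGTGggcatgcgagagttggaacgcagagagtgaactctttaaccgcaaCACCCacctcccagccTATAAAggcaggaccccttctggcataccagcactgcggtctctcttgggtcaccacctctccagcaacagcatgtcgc
Krt13: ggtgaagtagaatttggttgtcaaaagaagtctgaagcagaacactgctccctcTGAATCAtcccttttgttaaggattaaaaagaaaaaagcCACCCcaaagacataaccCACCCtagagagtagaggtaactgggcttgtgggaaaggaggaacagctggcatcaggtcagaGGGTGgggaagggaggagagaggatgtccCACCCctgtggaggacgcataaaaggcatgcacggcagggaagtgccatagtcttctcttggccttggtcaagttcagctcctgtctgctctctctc
Krt14: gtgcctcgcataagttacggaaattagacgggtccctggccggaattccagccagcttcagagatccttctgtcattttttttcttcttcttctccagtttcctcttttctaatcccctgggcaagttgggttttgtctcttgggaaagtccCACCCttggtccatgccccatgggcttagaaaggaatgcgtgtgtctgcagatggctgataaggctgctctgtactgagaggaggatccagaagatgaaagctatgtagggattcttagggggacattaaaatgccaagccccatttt

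The motifs searched were the TATA box TATAAA on the printed strand, CACCC on both strands (the core of sites of Krüppel-like factors, printed as GGGTG where it is on the other strand), the AP-1 site TGANTCA on both strands, and the AP-2 site GCCNNNGGC on both strands. No 2 of the motifs overlapped in the letters printed. TATAAA was in the Krt12 window at -29 from the start and in none of the others, against 8.32% of all 32851 promoter windows. CACCC occurred 4 times in Krt12, 4 times in Krt13 and 1 time in Krt14, against at least 1 in 57.5% of windows. TGANTCA occurred 1 time in Krt13, as TGAATCA, which lacks the C or G of the AP-1 site. In a second window of that gene it occurred 2 times, as TGACTCA. It was not in Krt12 or Krt14, against 7.81% of windows. GCCNNNGGC was in none of them, against 16.6% of windows. These matches describe letters in the windows, and binding was not measured.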

How the data were processed

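Expression was measured on 9 Affymetrix arrays with biotin-labelled total RNA, 3 of adult cornea, 2 of P10 cornea, 2 of lens and 2 of tendon. The deposited values are linear intensity values (a.u.), 1 per probe set and array. Per the series' design text the authors ran Microarray Suite 5.0 and then dChip, with invariant-set normalization and a model-based index. Per the submitters' processing notes MAS5 was used, and the sources used here leave unstated which program gave the deposited values. Detection calls were not used here.

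Of 12422 probe sets that are not controls, 10833 carry 1 gene symbol, 396 several and 1193 none. Members and other genes were named from probe sets with 1 symbol. Values at or below 0 were set to 0, 16 was added and log2 was taken. With limma 3.58.1 (R 4.3.3), 1 mean per group was fitted over the 9 arrays (variance trend, 5 residual and 4.93 prior degrees of freedom), with two-sided p-values. A list gene was represented by its probe set of highest mean, and named when called between the ages, up to 5 a list, with a few named always. For likeness the 3 nearest probe sets were named, 5 for Krt12. The members and gene lists were chosen with earlier results of these data known. The tests were tried on simulated data. Alternatives covered pseudocounts, filters, scalings, fewer groups, a replicate block, the methods' t-test on unlogged values (unadjusted, with a fold and a difference minimum), each array left out and the epithelial centring.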

Additional observations from a re-analysis of the deposited data

How the results depend on the processing

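Depth of signal limits the dim members: lens and most tendon values of Krt13, Krt14 and Krt15 lie in the lower part of their arrays. Krt4 161647_f_at is at the floor in lens and tendon and on adult cornea replicates 1 and 3. Groups of 2 arrays borrow their spread from the others. The count of members lower in adult than in P10 cornea, 2, was 1 with a pseudocount of 1, trimmed mean scaling or median centring, 4 with a pseudocount of 64 and 0 with only the groups compared. Leaving out single arrays gave 0 to 5, with 0 without either P10 array, 1 without adult replicate 1, adult replicate 3 or either lens array, and 5 without adult replicate 2. The median of all genes between the ages, -0.13, became 0.025 after quantile normalization, -0.0046 after scaling to trimmed means and 0.037 after centring on medians, and Krt4 100421_at stayed lower under all 3 (adjusted p = 0.0166, 0.0343 and 0.0428). In the methods' t-test, with a fold of at least 2 and a difference of at least 100, the members higher were 5 in adult cornea against lens, 5 against tendon, 4 in P10 cornea against lens, 5 against tendon and 1 in lens against tendon, where 0 were lower. After Benjamini-Hochberg adjustment it left 0 members in all 6 comparisons. Under it Krt15 was called lower in adult cornea and Krt4 100421_at was not. In P10 cornea against tendon 1 member was lower with quantile normalization and with only the groups compared, and in adult cornea against tendon leaving out arrays gave 0 to 1 lower. In lens against tendon 1 was lower with a pseudocount of 64 and with only the groups compared, and leaving out arrays gave 1 to 2 lower and 2 to 3 higher. The cause of these changes was not tested.

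Small differences changed sign. Between adult and P10 cornea, leaving out single arrays gave -0.045 (without adult replicate 3) to 0.15 for Krt12, also negative without P10 replicate 1, -0.076 (without P10 replicate 1) to 0.39 for Krt6a 104370_s_at and -0.054 (without adult replicate 2) to 0.15 for Krt17 161496_r_at. Epithelial centring, which lowers the difference of every probe set by 1 amount (median of all -0.39), put them at -0.20, -0.10 and -0.22. Between lens and tendon, leaving out single arrays gave -0.12 (without tendon replicate 2) to 0.30 for Krt4 100421_at. There, without tendon replicate 1, the sign also turned for Krt13 160510_f_at (range -0.71 to 0.13) and Krt17 92862_f_at (range -0.77 to 0.075). Deviations of same-numbered arrays correlated at -0.36 to 0.20 and those of differently numbered arrays at -0.51 to 0.51. In a group of 2 arrays the deviations mirror each other, so these values cannot tell whether replicate numbers pair the samples. With the replicate block the members lower in adult cornea were 1, Krt17 92862_f_at was not called (adjusted p = 0.0750) and Krt12 was -0.045. Every member's call of cornea against lens or tendon kept its direction and its side of the threshold in each fit run, apart from the methods' t-test and Krt17 161496_r_at.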
